A study of Mus musculus with 24 samples.

Results

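The genes described here are 8 complement and complement-related genes that are often discussed with the removal of synapses: C1qa, C1qb, C1qc, C3, C4b, Itgam, Itgb2 and C1ql3. They were chosen by name, and all 8 were found among the 15232 genes of the expression table. The anterior cingulate cortex, a midline area of the frontal cortex, was taken from 24 mice, and the poly(A) RNA of each animal was sequenced as 1 bulk library. The libraries form 3 arms of 8, each with 4 females and 4 males. The first arm is labelled wild type (WT) and untrained, the second is labelled Thbs1/2 knockout (KO) and untrained, and the third is labelled Thbs1/2 KO and trained. Trained animals worked in an operant chamber and were deprived of food for it, so training and food deprivation cannot be told apart. RNA was taken within 1 hour of behaviour. The strain, the age of the animals and the knockout alleles are not given in the sources used here.

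In the classical complement pathway the C1q protein, assembled from the chains of C1qa, C1qb and C1qc, binds a surface and starts a cascade that cleaves C4 and then C3. Fragments of C3 that stay on the surface are recognised by complement receptor 3, the integrin pair encoded by Itgam (CD11b) and Itgb2 (CD18), which phagocytes carry. In brain, C1q and this receptor are made mainly by microglia, the resident phagocytes, and the pathway is known for tagging synapses that microglia then engulf. C1ql3 stands apart by function: it encodes a secreted protein with a C1q-like domain that neurons release at synapses, where it binds the adhesion receptor encoded by Adgrb3, and it is not a component of the cascade.

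By RefSeq gene positions on GRCm38, the 3 C1q genes lie side by side within 18.7 kb of chromosome 4, with C1qb at chr4:136880126-136886200, C1qc at chr4:136889801-136892936 and C1qa at chr4:136895916-136898844. Itgam lies at chr7:128062640-128118491 and Itgb2 at chr10:77530329-77565708. C4b, at chr17:34728139-34743902, and C3, at chr17:57203967-57228136, share their chromosome with the targeted gene Thbs2 and are 20.1 Mb and 42.5 Mb from it. C1ql3, at chr2:13001887-13010864, shares its chromosome with Thbs1 and is 105 Mb from it. C4b has a close copy, C4a, at chr17:34809092-34823460, and how reads that fit both were assigned is not given in the sources used here, so the C4b level is uncertain to that extent.

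The 250 bases before the start site are shown for the microglial receptor gene Itgam, for 2 of the C1q genes and for the neuronal C1ql3. Itgam values did not overlap between 2 sets of animal numbers described below, though a term for these numbers did not pass. Sequences are from RefSeq (GRCm38.p6), 5′ to 3′ on the strand of each gene, at chr7:128062390-128062639 (Itgam, plus strand), chr4:136886201-136886450 (C1qb, minus strand), chr4:136892915-136893164 (C1qc, minus strand) and chr2:13010865-13011114 (C1ql3, minus strand). They are counted from the RefSeq start site, which for C1qc is not the outer end of the gene given above. Capitals mark the letters GAGGAA, or TTCCTC on the opposite strand, the core of many sites of PU.1, a transcription factor of myeloid cells.
Itgam upstream bases: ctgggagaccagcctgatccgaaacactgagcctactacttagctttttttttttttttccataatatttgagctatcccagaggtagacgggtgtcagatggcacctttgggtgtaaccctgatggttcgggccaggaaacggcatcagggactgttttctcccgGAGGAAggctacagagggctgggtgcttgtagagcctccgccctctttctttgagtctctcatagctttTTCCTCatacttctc
C1qb upstream bases: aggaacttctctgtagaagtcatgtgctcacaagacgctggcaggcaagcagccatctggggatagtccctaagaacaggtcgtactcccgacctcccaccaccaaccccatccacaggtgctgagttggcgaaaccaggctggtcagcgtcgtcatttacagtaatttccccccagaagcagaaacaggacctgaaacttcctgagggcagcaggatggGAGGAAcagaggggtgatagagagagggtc
C1qc upstream bases: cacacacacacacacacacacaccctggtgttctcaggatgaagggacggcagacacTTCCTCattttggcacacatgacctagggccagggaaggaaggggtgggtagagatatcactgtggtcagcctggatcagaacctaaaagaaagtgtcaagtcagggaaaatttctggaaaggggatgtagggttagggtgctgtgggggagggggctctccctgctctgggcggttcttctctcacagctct
C1ql3 upstream bases: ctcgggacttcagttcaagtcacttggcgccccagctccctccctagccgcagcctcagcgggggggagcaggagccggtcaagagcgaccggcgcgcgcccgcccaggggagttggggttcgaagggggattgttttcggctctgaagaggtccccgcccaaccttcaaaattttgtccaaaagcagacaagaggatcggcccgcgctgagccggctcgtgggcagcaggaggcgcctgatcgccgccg
The core was found in the Itgam window at 84 and 15 bases before the start, in the C1qb window at 30 bases and in the C1qc window at 193 bases. It was not found in the C1ql3 window, which has a GC content of 66.4% and 23 CpG pairs, against 49.6% and 6 for Itgam, 55.2% and 6 for C1qb, and 54.0% and 2 for C1qc. Of 32544 promoter windows of the same length, 23.4% hold the core on either strand, so a match is common and is only a description of the letters. Of the 8 genes, C3 was also matched, with a window that lacks the core, and C1qa, C4b and Itgb2 had no entry.

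As a check of the labels the targeted genes were read first, and they went against them. Thbs1 was at 0.254 to 0.716 FPKM (sequenced fragments divided by gene length and library size) in the libraries labelled WT and at 2.77 to 5.91 FPKM in those labelled KO, and Thbs2 was at 1.52 to 2.31 and 2.82 to 3.95 FPKM. The text therefore writes of libraries labelled WT or KO. Depth, recovered from the steps of the values, was 12898226 to 19991770 reads in the arm labelled WT, 12343773 to 27233267 in its untrained KO-labelled counterpart and 16796512 to 20414047 after training. The deepest library, male library 3 of the untrained arm labelled KO, also stood apart in its tissue markers: 10 excitatory neuron genes summed to 988 FPKM there against arm medians of 1905 to 2022, 8 striatal genes to 750 against 101 to 129, and 5 septal genes to 102 against 23.0 to 26.6. The labels also number the animals: numbers over 1000 were carried by the whole trained arm (8 animals) and, among untrained animals, by 2 males labelled KO and 1 male labelled WT.

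The levels of the 8 genes spanned more than the differences between arms did. On the FPKM scale, which is per length, C1ql3 was highest with a mean of 68.5 ± 16.9 FPKM (SD, n = 24), followed by C1qb at 36.7 ± 3.59, C1qc at 29.6 ± 3.48 and C1qa at 29.3 ± 2.88 FPKM. Itgam at 5.34 ± 0.764 and C4b at 5.27 ± 1.58 FPKM were lower, then Itgb2 at 2.02 ± 0.233 FPKM, and C3 was lowest at 0.166 ± 0.0852 FPKM. C1qb exceeded C1qc in 24 of 24 libraries, by a median of 1.23 times. C1qc and C1qa, the remaining chains, could not be ordered, with C1qc the higher in 12 of 24 libraries, and Itgam and C4b could not be ordered either, with Itgam the higher in 12 of 24. Itgb2, whose product pairs with that of Itgam, was below Itgam and below C4b, the latter in 24 of 24 libraries. C3, the central component of the cascade, rested on 5 to 64 reads a library, and it did not reach the mean of 1 FPKM used as a filter, so 7 of the 8 genes entered the tests and C3 values come from a fit without the filter.

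**Figure D1:**
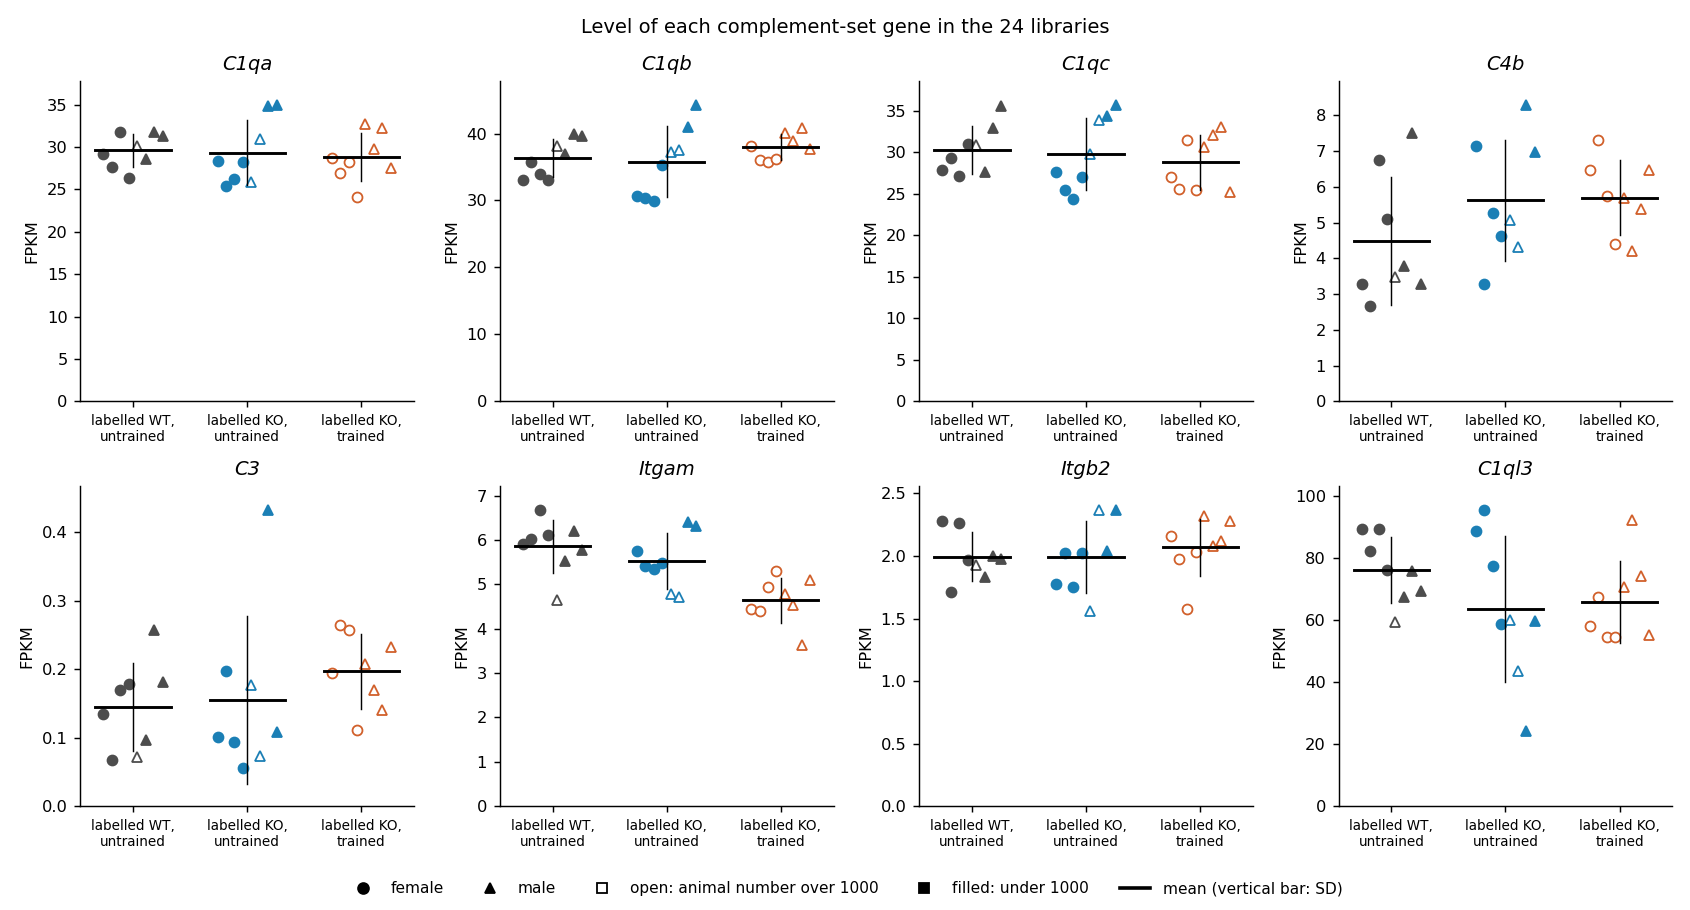
FPKM of each gene in the 24 libraries, grouped by arm, with circles for females, triangles for males, open symbols for animal numbers over 1000, a horizontal line for the mean and a vertical line for the SD. C4b and C1ql3 spread widely within an arm, and the Itgam values of the trained arm lie between 3.64 and 5.29.

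Variation between animals of the same arm and sex differed among the genes. The standard deviation of log2(FPKM + 1) after removing arm-by-sex means was 0.0759 for C1qb, larger than in 20.9% of 1000 genes of like level, and 0.114 for Itgb2, larger than in 14.1%. C1qa, at 0.120, and C1qc, at 0.125, were larger than 63.4% and 66.2% of genes of like level, and Itgam, at 0.137, than 51.5%. It was 0.377 for C4b, larger than in 98.0% of genes of like level, and 0.315 for C1ql3, larger than in 97.5%. C4b ranged from 2.68 to 8.30 FPKM, on 206 to 1289 reads, and counting error at its median depth was 4.85% (coefficient of variation) against 30.0% measured over libraries. C3 had the largest relative spread, 51.4%, where counting error at its median depth was 27.2%.

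The first comparison, between the untrained arms, asks what the genotype label alone goes with. None of the 7 tested complement genes passed (0 of 7), where 1.42% of the 12572 genes tested passed in either direction (limma, Benjamini-Hochberg adjusted p under 0.05). At an unadjusted p under 0.05 the count was 1, C1ql3, and limma-voom on the recovered reads also called 0. The C1q genes, which encode the recognition molecule of the pathway, differed little. C1qb was at 33.1, 36.3 and 40.0 FPKM (lowest, median and highest of 8) in the arm labelled WT and at 29.9, 36.3 and 44.3 FPKM in the untrained arm labelled KO. The groups overlapped fully and the difference, labelled KO minus labelled WT, was -0.030 (SE 0.0468, limma, 95% interval -0.13 to 0.069) on the log2(FPKM + 1) scale. C1qa differed by -0.020 (95% interval -0.15 to 0.11) and C1qc by -0.033 (95% interval -0.15 to 0.089) on the same scale.

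C4b, the substrate that the C1 complex cleaves first, was at 2.68, 3.64 and 7.51 FPKM (lowest, median and highest) in the arm labelled WT and at 3.29, 5.17 and 8.30 FPKM in the untrained arm labelled KO. The groups overlapped over most of their range. The difference of 0.29 (SE 0.186, limma adjusted p = 0.557) was within the spread between animals, and its 95% interval of -0.10 to 0.69 covers both no difference and a large one. Its copy C4a averaged 0.284 ± 0.0438 and 0.237 ± 0.0366 FPKM in these arms (SD, n = 8 each). C3, whose fragments are the ligand of the receptor, averaged 0.145 ± 0.0646 and 0.155 ± 0.122 FPKM (SD, n = 8 each), in the same order. The C3 difference of 0.0084 (limma without the filter) became -0.036 without male library 3 of the untrained arm labelled KO, so its sign was not settled at this depth.

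Of the receptor genes, Itgam was at 4.64, 5.96 and 6.68 FPKM (lowest, median and highest) in the arm labelled WT and at 4.71, 5.45 and 6.41 FPKM in the untrained arm labelled KO, a difference of -0.072 (95% interval -0.21 to 0.068). Itgb2 averaged 2.00 ± 0.194 and 1.99 ± 0.288 FPKM (SD, n = 8 each), a difference of -0.0066 (95% interval -0.14 to 0.13). C1ql3 was at 59.4, 76.0 and 89.4 FPKM (lowest, median and highest) in the arm labelled WT and at 24.2, 59.9 and 95.5 FPKM in the untrained arm labelled KO. Its difference of -0.35 (SE 0.162, limma adjusted p = 0.380) did not pass, and it was -0.20 without male library 3, the lowest C1ql3 value of all 24 libraries. Between these arms 0 of 10 excitatory neuron genes, 0 of 8 striatal genes and 3 of 4 tested septal genes were higher. Their medians were -0.18, -0.24 and 0.18, and none of these genes passed. The part of tissue content in the C1ql3 difference was not tested.

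The second comparison, trained against untrained within the label KO, asks what training with food deprivation goes with. Again none of the tested complement genes passed (0 of 7), where 5.67% of all genes tested did. At an unadjusted p under 0.05 the count was 1, Itgam, and limma-voom called 0. Itgam fell short of the threshold with 3.64, 4.65 and 5.29 FPKM (lowest, median and highest of 8) in the trained arm against 4.71, 5.45 and 6.41 FPKM in the untrained one. All trained values except 5.29, 5.10, 4.93 and 4.77 lay below the lowest untrained value, and the difference was -0.21 (SE 0.0700, limma adjusted p = 0.0833). Itgam passed in a fit of all 24 libraries together (adjusted p = 0.0447) and with array weights (adjusted p = 0.0467), and its difference was -0.016 with a term for animal number over 1000. Only 2 untrained libraries labelled KO, both male, have numbers over 1000, as does the whole trained arm. The training contrast with that term rests on these 2 libraries.

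C1qb was at 35.8, 37.9 and 40.9 FPKM (lowest, median and highest) in the trained arm, inside the range of the untrained arm, and differed by 0.096 (95% interval -0.016 to 0.21). With array weights its difference was 0.16 and passed (limma adjusted p = 0.0386), and after correction for GC content and length it was 0.040 (adjusted p = 0.629). C1qa differed by -0.022 (95% interval -0.15 to 0.11), C1qc by -0.042 (95% interval -0.18 to 0.095) and Itgb2 by 0.041 (95% interval -0.094 to 0.18). C4b was at 4.20, 5.71 and 7.31 FPKM (lowest, median and highest) in the trained arm, and its difference from the untrained arm was 0.042 (95% interval -0.26 to 0.34). C3 was at 0.197 ± 0.0546 FPKM (SD, n = 8) in the trained arm on 10 to 25 reads a library, a difference of 0.057 (95% interval -0.062 to 0.18, without the filter). C1ql3 was at 54.4, 62.7 and 92.2 FPKM (lowest, median and highest) in the trained arm, a difference of 0.13 (95% interval -0.31 to 0.57) that became -0.043 without male library 3 of the untrained arm.

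**Figure D2:**
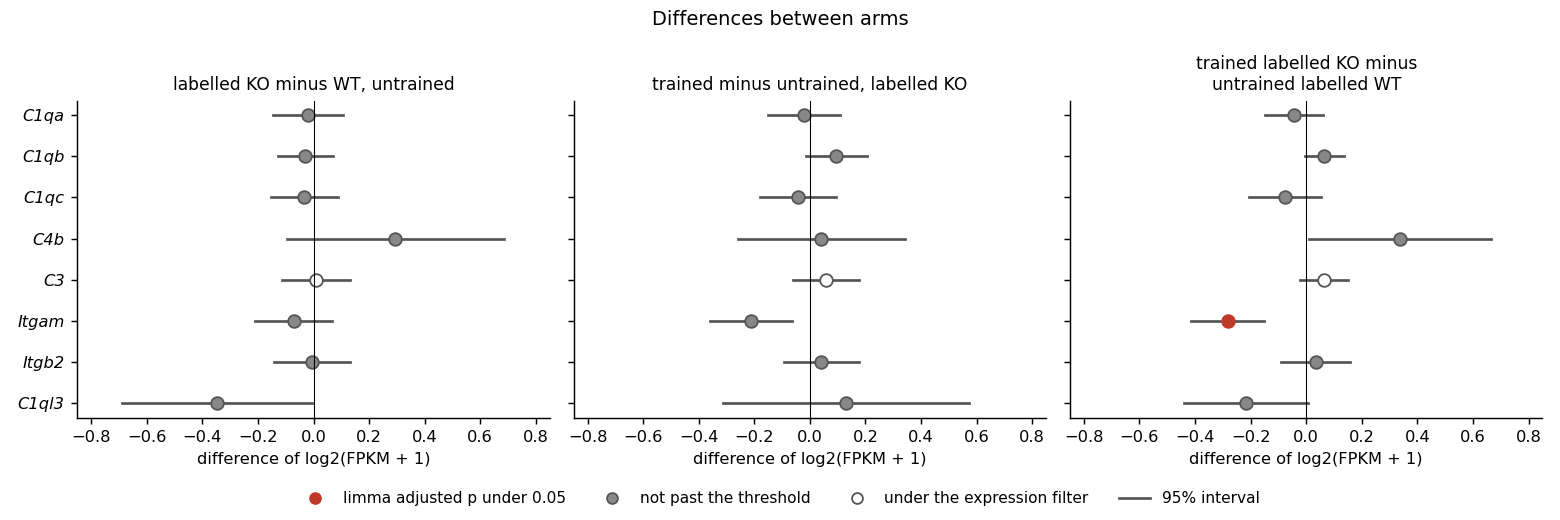
Differences of log2(FPKM + 1) with 95% intervals (limma) for the 8 genes in the 3 comparisons of arms, with a filled red point where the adjusted p is under 0.05 and an open point for C3, which is under the expression filter. Itgam in the comparison of the trained arm with the arm labelled WT, at -0.28, is the one red point, and the C4b and C1ql3 intervals are the widest.

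The third comparison sets the trained arm labelled KO against the untrained arm labelled WT, so label, training and food deprivation differ together, and it shares its libraries with both comparisons above. In it 1 of the 7 tested genes passed, where 24.5% of all genes tested did, and 11.5% of all genes tested were lower. Itgam fell by 0.28 (SE 0.0630, 95% interval -0.41 to -0.15, limma adjusted p = 0.00398), from 4.64, 5.96 and 6.68 FPKM (lowest, median and highest) to 3.64, 4.65 and 5.29 FPKM. Male library 1 of the arm labelled WT, at 4.64 FPKM, lay within the trained range, and the other 7 libraries of that arm lay above it. The call held in all 16 fits that left out 1 library, with adjusted p from 0.00151 to 0.0106. It was lost with a term for animal number over 1000, where the difference was -0.041. Here only 1 library labelled WT has a number over 1000, as does the whole trained arm, so the contrast with that term rests on this library. Most calls of the whole table were lost with the term too, as counted below.

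The 18 microglial marker genes, all of which were tested, summed to 249 to 284 FPKM in the arm labelled WT, 232 to 285 FPKM in the untrained arm labelled KO and 230 to 259 FPKM in the trained arm. In bulk tissue fewer cells of a type and less RNA per cell cannot be told apart. In the third comparison 8 of the 18 passed, where 24.5% of all genes tested did. Of these, 7 were lower, among them Cx3cr1, P2ry12, Trem2 and Gpr34, and 1 was higher (Tmem119), with a median over the list of -0.099 against 0.0032 over all genes tested. With the animal number term these calls were lost, as were most of the whole table, and that contrast rests on 1 library labelled WT. The differences with it were -0.38 for Trem2 and -0.15 for Gpr34, against -0.50 and -0.35 without it. The part of animal number in these differences was not tested. Trem2, a lipid-sensing receptor of microglia, was also lower between the untrained arms (difference -0.44, limma adjusted p = 0.00351). It was the 1 of 18 called there, where 1.42% of all genes tested passed, and its position relative to Thbs1 and Thbs2 was not read. Gpr34 was the 1 of 18 called for training (difference -0.27, limma adjusted p = 0.0355), near the 5.67% of all genes tested. That call was lost in 9 of 16 fits that left out 1 library. Of 14 markers of border macrophages and blood leukocytes, 6 were found, all with a mean under 1 FPKM, and 0 were tested. They summed to 1.77 to 3.13 FPKM in the arm labelled WT and 2.20 to 6.65 FPKM in the untrained arm labelled KO. In the trained arm the sum was 2.94 to 4.96 FPKM, and none of the 6 was at 0 throughout. The part of these marker levels in the Itgam difference was not tested.

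For the other genes of the third comparison, C4b differed by 0.34 (SE 0.156, limma adjusted p = 0.123) and C1ql3 by -0.22 (SE 0.107, adjusted p = 0.145). C4b passed without male library 3 of the arm labelled WT, its highest value in that arm at 7.51 FPKM (adjusted p = 0.0270). C1ql3 passed without male library 2 of the trained arm, its highest value in that arm at 92.2 FPKM (adjusted p = 0.0252). C1qa differed by -0.043 (95% interval -0.15 to 0.062), C1qb by 0.065 (95% interval -0.0059 to 0.14) and C1qc by -0.075 (95% interval -0.20 to 0.054). Itgb2 differed by 0.034 (95% interval -0.089 to 0.16) and C3 by 0.065 (95% interval -0.021 to 0.15, without the filter). After correction for GC content and length C1qc was -0.15 and passed (adjusted p = 0.0179).

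Itgam levels separated completely by animal number, across arms. The 11 libraries with numbers over 1000 were at 3.64, 4.71 and 5.29 FPKM (lowest, median and highest), and the 13 with numbers under 1000 were at 5.34, 5.90 and 6.68 FPKM, so the 2 sets did not overlap. Of all genes tested, 13 separated the 2 sets in this way, which is 0.103%, and 6 of these, or 0.0477% of all, were lower in animals with numbers over 1000. The 3 untrained animals with numbers over 1000 were at 4.64 FPKM (labelled WT), 4.71 FPKM and 4.77 FPKM (both labelled KO), inside the range of the trained arm.

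Among the 16 untrained libraries alone, Itgam differed by -0.29 (SE 0.0692, unadjusted p = 0.000629, adjusted p = 0.456 over all genes tested) between numbers over and under 1000, with label and sex in the limma fit. Within these 16 libraries 1.69% of all genes tested separated the 3 from the 13 without overlap. The contrast called 0 of 12572 genes, and over all 24 libraries, with arm and sex in the fit, the number term for Itgam was -0.27 (SE 0.0784, unadjusted p = 0.00246, limma adjusted p = 0.300). Among animals with numbers under 1000, the label difference for Itgam was -0.048 (limma adjusted p = 0.762). Among males with numbers over 1000, the trained minus untrained difference, an alternative chosen after seeing the data, was -0.066 (SE 0.120, limma adjusted p = 0.856). For females training and animal number cannot be told apart, since no untrained female had a number over 1000.

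The partner subunit did not split in that way. Itgb2 was at 1.56, 2.08 and 2.37 FPKM (lowest, median and highest) over 1000 and at 1.71, 2.00 and 2.37 FPKM under 1000. The 5 other tested complement genes overlapped as well, with C1qb at 35.8 to 40.9 FPKM over 1000 and 29.9 to 44.3 FPKM under 1000. The 18 microglial markers all overlapped between the 2 sets, though some differed in their medians as much as Itgam did. The ratio of medians, over to under 1000, was 0.798 for Itgam, 0.750 for Gpr34, 0.784 for Ly86, 0.808 for Siglech, 0.820 for Trem2 and 0.838 for P2ry12, and it was above 1 for Selplg (1.17), Laptm5 (1.14) and Tmem119 (1.11). Gpr34 ranged from 3.33 to 4.46 FPKM over 1000 and from 3.71 to 7.27 FPKM under 1000. The 18 genes summed to a median of 242 FPKM (range 230 to 259) over 1000 and 261 FPKM (range 232 to 285) under 1000, and the part of this in the Itgam difference was not tested. What the animal numbers stand for is not given in the sources used here.

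**Figure D3:**
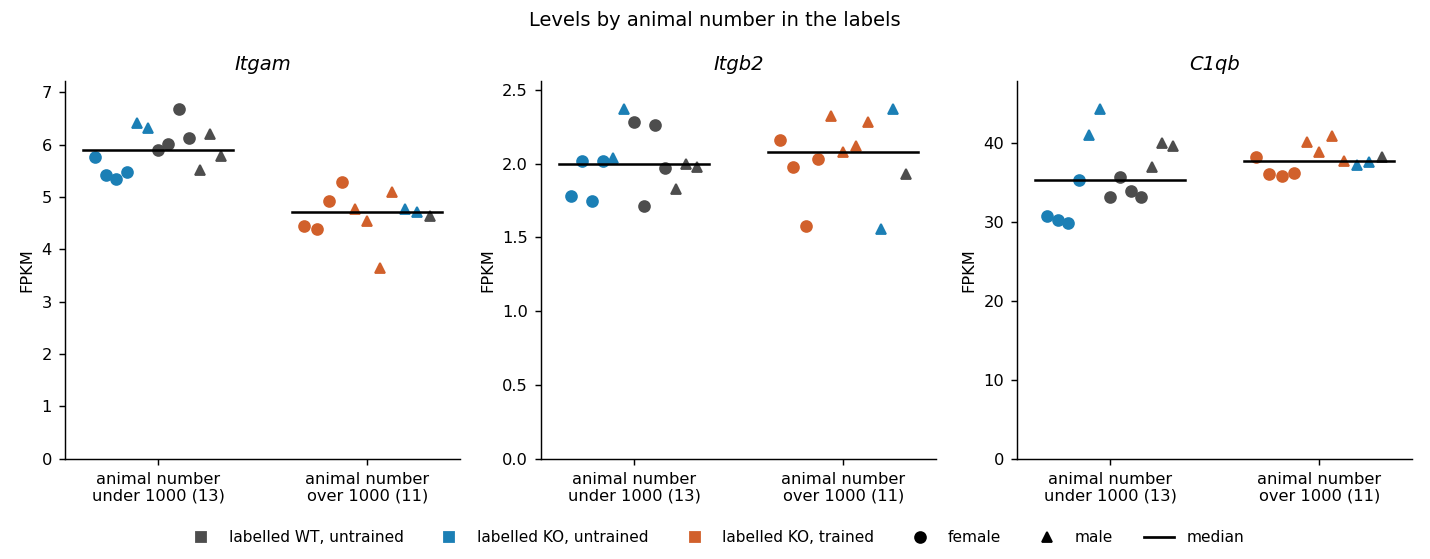
FPKM of Itgam, its partner Itgb2 and C1qb in the 13 libraries with animal numbers under 1000 and the 11 with numbers over 1000, coloured by arm, with circles for females, triangles for males and a line for the median. The 2 sets of Itgam values do not overlap, whichever arm they come from, and those of Itgb2 and C1qb do.

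The 3 C1q genes were higher in males in the values as deposited, and did not pass after a correction for GC content and length given below. Of the 7 tested genes 3 passed for sex over the 24 libraries, all higher in males, with arm as a covariate. Of all genes tested 28.6% passed and 14.8% were higher in males. C1qb, with the smallest spread, was at 29.9, 34.6 and 38.2 FPKM (lowest, median and highest of 12) in females and at 36.9, 39.3 and 44.3 FPKM in males, and the ranges met between 36.9 and 38.2. The male minus female difference was 0.21 (SE 0.0374, limma adjusted p = 0.000597). C1qc was at 24.4, 27.1 and 31.4 FPKM in females and 25.2, 32.4 and 35.7 FPKM in males, a difference of 0.20 (SE 0.0517, limma adjusted p = 0.00541). C1qa was at 24.1, 27.9 and 31.8 FPKM in females and 25.9, 31.1 and 35.0 FPKM in males, a difference of 0.15 (SE 0.0471, limma adjusted p = 0.0174) that did not pass when libraries were scaled to an equal sum (adjusted p = 0.0967).

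The sex difference of the C1q genes changed with corrections for GC content and for length. Their transcripts have a GC content of 59.5% (C1qa), 57.4% (C1qb) and 57.5% (C1qc), above 94.4%, 87.8% and 88.4% of tested genes. Across 12118 genes, which share libraries and are not independent, the sex difference and GC content had a Spearman rho of 0.697, and the 1669 genes with a GC content over 57% had a median sex difference of 0.13. After each library was corrected for GC content and length, the differences were -0.057 for C1qa (adjusted p = 0.534), 0.040 for C1qb (adjusted p = 0.554) and 0.038 for C1qc (adjusted p = 0.621), and none of the genes passed. With GC content alone corrected they were 0.020, 0.084 and 0.082, and none passed. With length alone corrected they were 0.024, 0.11 and 0.11, and C1qb passed (limma adjusted p = 0.0195). Itgam, with a GC content of 48.9%, differed by -0.069 between the sexes before correction, Itgb2 by 0.053, C4b by 0.050 and C3 by 0.031. The male minus female difference of C1ql3 was -0.28 (SE 0.145, adjusted p = 0.155), and among animals with numbers under 1000 it was -0.59 and passed (limma adjusted p = 0.0454). Male library 3 of the untrained arm labelled KO, at 24.2 FPKM, is among those animals, and without it the difference was -0.29 (adjusted p = 0.0419).

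**Figure D4:**
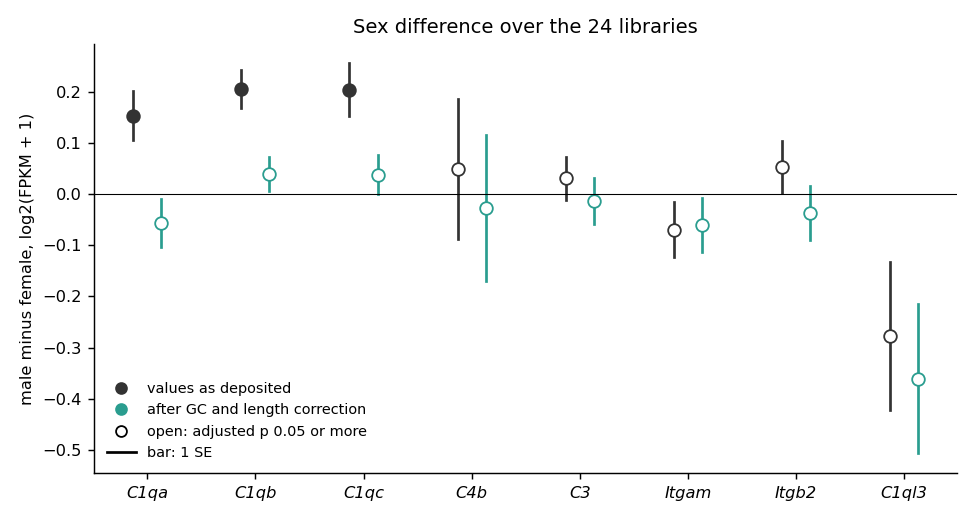
Male minus female difference of log2(FPKM + 1) with 1 SE (limma, 24 libraries, arm as covariate) for the 8 genes, with black points for values as deposited, green points after GC and length correction, and filled points for an adjusted p under 0.05. The 3 C1q genes are at 0.15 to 0.21 before correction and at -0.057 to 0.040 after it.

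Whether the arms differed in one sex more than in the other was tested with interaction terms. For genotype label by sex 0 of the 7 genes passed, 0 also at an unadjusted p under 0.05, where 0% of all genes tested passed (limma, and limma-voom called 0 as well). For training by sex 0 of the 7 passed, where 0.00795% of all genes tested did. At an unadjusted p under 0.05 the count was 2, and the share of all genes at that level is not given here. C1ql3 had the largest such term among the 8, at 1.12 (SE 0.332, unadjusted p = 0.00403, limma adjusted p = 0.132). Untrained females labelled KO were at 88.6, 95.5, 77.5 and 58.8 FPKM, and trained females at 57.9, 67.5, 54.5 and 54.4 FPKM. Untrained males labelled KO were at 60.0, 43.7, 24.2 and 59.8 FPKM, and trained males at 70.5, 92.2, 74.3 and 55.2 FPKM. In females 3 of the 4 untrained values were above all trained values, and in males 3 of the 4 trained values were above all untrained ones.

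The C1ql3 term passed in a fit of all 24 libraries (adjusted p = 0.0447) and with array weights (adjusted p = 0.0103), and it was 0.83 without male library 3 of the untrained arm (adjusted p = 0.0749). With array weights far more genes of the whole table passed than in the main fit, as counted below. Numbers over 1000 were carried by 2 males and 0 females of the untrained arm labelled KO, and by all 8 trained animals. For training by sex 8 of 10 excitatory neuron genes were positive (median 0.43), against 0 of 8 striatal genes (-0.89) and 0 of 4 tested septal genes (-0.48). No gene of these lists passed, and the median over all genes tested was -0.0090. The parts of animal number and of tissue content in the C1ql3 term were not tested. C1qb, the second gene at an unadjusted p under 0.05, had a term of -0.23 (SE 0.0901, unadjusted p = 0.0222, limma adjusted p = 0.245). After correction for GC content and length the C1qb term was -0.12 (adjusted p = 0.637). C1qb averaged 31.6 ± 2.54 in untrained and 36.6 ± 1.10 FPKM in trained females labelled KO (SD, n = 4 each), and 40.0 ± 3.31 and 39.4 ± 1.41 FPKM in the males (SD, n = 4 each).

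Relations among the 8 genes were read over the 24 libraries after the means of each arm and sex were removed, as 28 pairs. Of these, 1 pair passed. The permutation p-values are those of 24 free values, and removing the means leaves fewer, so they are too small. Whether the pair would pass with that allowed for was not tested. C1qa and C1qb had a Pearson r of 0.627 and a Spearman rho of 0.624 (permutation p = 0.00096 and 0.00113, adjusted p = 0.0269 and 0.0316 over 28 pairs), and r was 0.598 without the 2 libraries farthest from the C1qa median. C1qa and C1qc had an r of 0.551 (permutation, adjusted p = 0.0759, rho 0.513), C1qb and C1qc an r of 0.480 (permutation, adjusted p = 0.0983, rho 0.495), and C3 and C4b an r of 0.518 (permutation, adjusted p = 0.0850, rho 0.509). The 2 subunits of complement receptor 3, Itgam and Itgb2, had an r of 0.213 (permutation, adjusted p = 0.594, rho 0.162).

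As a description without a test, the genes most like each pattern over the 24 libraries were found the same way. The mean of the 3 C1q genes was closest to Rnf113a2 (r 0.817), Rps19 (0.807), Rps21 (0.803), S100a13 (0.802) and Rpl41 (0.802), 3 of which encode ribosomal proteins, while the closest of the 18 microglial markers was Ly86 (0.607). C4b was closest to E130114P18Rik (r 0.830), Gfap (0.815), Bmp6 (0.800), Dcn (0.797) and Mgst1 (0.797). Gfap encodes the astrocyte intermediate filament and Dcn the matrix proteoglycan decorin. C1ql3 was closest to Creg2 (r 0.919), Rspo2 (0.916), Mmd (0.907), Sh3gl2 (0.905) and Ncald (0.897), and r was 0.835 to 0.896 without male library 3 of the untrained arm labelled KO. These libraries also share depth and tissue content, which enter such values.

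The 56 listed genes of the wider complement system and its synaptic relatives were read beside the 8, and 39 of them were analysed and 25 tested. Between the untrained arms 1 of 25 passed, where 1.42% of all genes tested did: Cd59a, the inhibitor of the membrane attack complex, averaged 1.98 ± 0.374 under the label WT and 0.850 ± 0.185 FPKM under the label KO (SD, n = 8 each). The difference was -0.68 (SE 0.0856, limma adjusted p = 0.000172), and it was -0.65 among animals with numbers under 1000 (adjusted p = 0.00528). Where Cd59a lies relative to the targeted genes Thbs1 and Thbs2 was not read, so linkage to them was not tested. The list median was -0.014 against -0.0014 over all genes tested.

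For training 3 of the 25 passed, all higher, where 5.67% of all genes tested passed, with a list median of -0.024 against 0.0065 over all genes tested. Cfp, which encodes properdin, the stabiliser of the alternative pathway, averaged 5.25 ± 1.10 in untrained and 7.0 ± 0.769 FPKM in trained animals labelled KO (SD, n = 8 each), a difference of 0.37 (limma adjusted p = 0.0367). The Cfp call was lost in 9 of 16 fits that left out 1 library. Calr, the endoplasmic reticulum chaperone that can serve as a C1q receptor at the cell surface, averaged 136 ± 8.59 and 179 ± 11 FPKM (SD, n = 8 each) and rose by 0.40 (adjusted p = 0.000528). Nptx2, a synaptic pentraxin regulated by neuronal activity, averaged 17.9 ± 4.19 and 28.4 ± 3.99 FPKM (SD, n = 8 each) and rose by 0.66 (adjusted p = 0.0104). With a term for animal number over 1000 none of the 12572 genes passed for training, and the differences were 0.072 for Cfp, 0.37 for Calr and 0.53 for Nptx2. That contrast rests on the 2 untrained males labelled KO with numbers over 1000.

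In the third comparison 10 of the 25 passed, 5 in each direction, where 24.5% of all genes tested passed, with a list median of -0.019 against 0.0032 over all genes tested. Cfp, Clu, Calr, Sez6l2 and Nptx2 were higher in the trained arm, by 0.16 (Clu, clusterin, a fluid-phase inhibitor of the attack complex) to 0.56 (Nptx2). When 1 library was left out, the call was lost in 12 of 16 fits for Clu and in 3 of 16 for Sez6l2. The regulators Cd46 (-0.54) and Cd59a (-0.59), and the large complement-control-repeat genes Csmd1 (-0.20), Csmd2 (-0.33) and Csmd3 (-0.33), were lower. Cd46 encodes a cofactor for the cleavage of C3b and averaged 2.33 ± 0.550 against 1.26 ± 0.153 FPKM (SD, n = 8 each). With the animal number term none of these genes passed, and Clu and Sez6l2 changed sign. That contrast rests on 1 library labelled WT, and most calls of the whole table were lost with it too. For sex 5 of the 25 passed, where 28.6% of all genes tested did, with Clu, Sez6l2 and Susd4 higher and Itgb1 and Csmd3 lower in males.

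**Figure D5:**
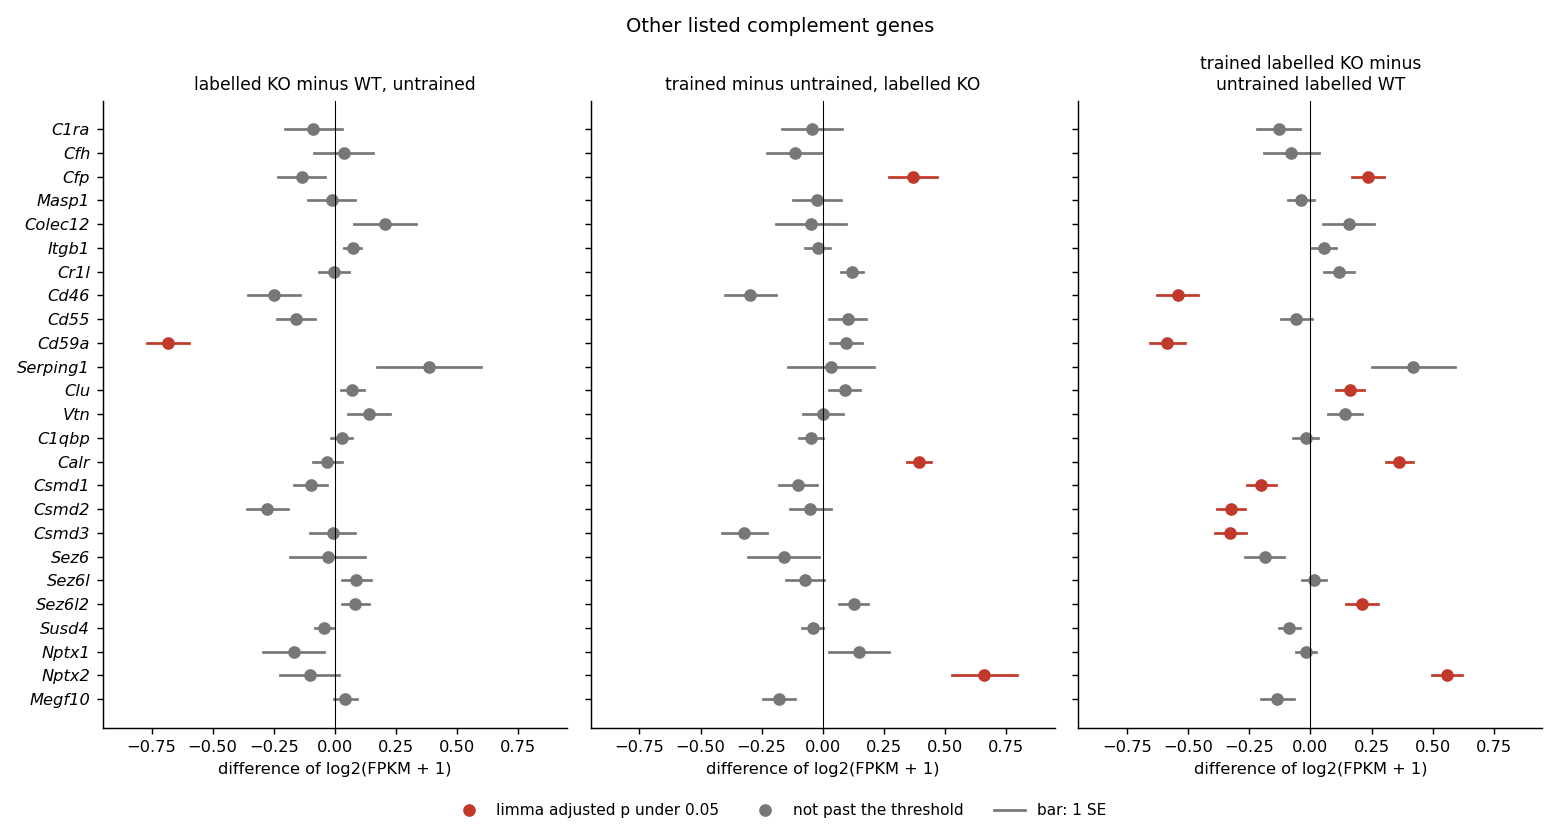
Differences of log2(FPKM + 1) with 1 SE for the 25 tested genes of the wider complement list in the 3 comparisons of arms, with red points for a limma adjusted p under 0.05. Cd59a alone is red between the untrained arms, 3 genes are red for training, and 10 are red in the third comparison.

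The relatives of C1ql3, the C1q-like and cerebellin genes with their receptors, were 11 listed genes, of which 10 were analysed and 9 tested. None of the 9 passed by limma for the genotype label or for training, where 1.42% and 5.67% of all genes tested did. At an unadjusted p under 0.05 the counts were 2 and 3, with no share of all genes to set beside them. Limma-voom also called 0 in both comparisons. In the third comparison 4 of the 9 passed, where 24.5% of all genes tested did: Cbln1 by 0.56, Cbln2 by 0.41 and Cbln4 by 0.47, secreted synaptic organisers of the cerebellin family, were higher in the trained arm, and Adgrb3, the receptor of C1ql3, was lower, with a difference of -0.24 (adjusted p = 0.00211). Adgrb3 averaged 24 ± 1.68, 22.7 ± 2.24 and 20.2 ± 1.49 FPKM (SD, n = 8 each) in the arm labelled WT, the untrained KO-labelled arm and the trained arm. With the animal number term, where most calls of the whole table were lost as well, none of the 4 passed, and Cbln4 changed sign. C1ql1 was higher in males by 0.34 (adjusted p = 0.00629), the 1 of 9 called for sex, where 28.6% of all genes tested were.

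Among 11 astrocyte genes none passed by limma between the untrained arms or for training, where 1.42% and 5.67% of all genes tested did. At an unadjusted p under 0.05 the counts were 1 and 4, with no share of all genes to set beside them. Limma-voom also called 0 in both comparisons. For the trained arm against the arm labelled WT 3 of the 11 passed, where 24.5% of all genes tested did, with Aldoc and Serpina3n higher and Slc1a3 lower. Serpina3n, a gene of reactive astrocytes, rose by 0.42 (limma adjusted p = 0.0128). The 11 genes summed to 947 to 1099 FPKM in the arm labelled WT, 974 to 1260 FPKM in untrained animals labelled KO and 921 to 1179 FPKM in the trained arm.

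For the genes that share a chromosome with Thbs1 or Thbs2, the 10 tested genes on each side were read in the order of the table. Between the untrained arms 0 of 20 neighbours of C1ql3, 0 of 20 of C4b and 1 of 20 of C3 passed, the last being Khsrp (difference -0.34, limma adjusted p = 8.18e-05). For training 2 of 20 passed around C1ql3 (Rbm17 higher, Trdmt1 lower), 2 around C4b, the heat shock genes Hspa1b (0.74) and Hspa1a (0.47), near-identical copies whose reads may have been split between them, and 1 around C3 (Trip10, 0.31). For the third comparison 5 of 20 passed around each of the 3 genes. These counts lie beside the 1.42%, 5.67% and 24.5% of all genes tested.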

How the data were processed

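Bulk RNA of 24 libraries was sequenced after a stranded mRNA library kit, per the labels' protocols. The authors deposited FPKM values for 15232 genes. FastQC 0.11.7, Trimmomatic 0.38, STAR 2.5.3a, featureCounts (Subread 1.6.3) and the build mm10 are named, per the submitters' processing notes. Whole reads were recovered from the FPKM steps (99.99% of values whole within 0.01 read). Intervals and read numbers cover these libraries, and molecular identifiers are not described.

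log2(FPKM + 1) was fitted with limma 3.58.1 (trend) in R 4.3.3 over 12572 genes (filter: mean over all libraries 1 FPKM or more), for the compared arms with sex as covariate, and p-values were Benjamini-Hochberg adjusted over all genes tested (threshold 0.05). This scale understates changes of low genes. Shares of all genes tested are given at the adjusted threshold only, so counts at an unadjusted p under 0.05 have no share beside them. All 8 genes were read in every comparison, with list members that passed, the 5 genes most like each pattern (the C1q mean, C4b and C1ql3), and called neighbours. The 8 genes and the lists were chosen with earlier results of these data known. Alternatives included pseudocount, filter, scaling, weights, replicate block, animal number, GC content and length (20 bins, for the 96.4% of tested genes with a GC value) and limma-voom. Figures used Python 3.11.15 and matplotlib 3.10.9. Each library is 1 animal. The trained female without a number in its title is called library 4.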

Additional observations from a re-analysis of the deposited data

Results flagged for a closer look

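Dixon's test was applied to each of the 8 genes in each arm, 24 groups of 8, and 2 values stood apart, where chance gives about 1.2. C3 in male library 3 of the untrained arm labelled KO was at 0.433 FPKM, on 64 reads, against 0.0564 to 0.198 FPKM in the other 7 libraries. That library is also the deepest and the one whose striatal and septal marker sums were far above those of its arm, and the part of these in the C3 value was not tested. Itgb2 in female library 3 of the trained arm was at 1.58 FPKM, the lowest of its arm, against 1.98 to 2.32 FPKM in the other 7.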

How the results depend on the processing

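The number of complement genes called was 0 for the genotype label and for genotype label by sex under every alternative run. For training it was 0, and it became 2 with array weights (C1qb and Itgam), 1 at a threshold of 0.1 and 1 with all 24 libraries in one fit (both Itgam). For the trained arm against the arm labelled WT it was 1, and it became 0 with the animal number term and 2 after GC and length correction, and 1 to 2 when 1 library was left out. For sex it was 3, and it became 0 after GC and length correction, 0 with GC content alone corrected, 1 with length alone corrected, 2 with libraries scaled to an equal sum and 4 in animals with numbers under 1000. For training by sex it was 0, and it became 1 with array weights and 1 with all 24 libraries in one fit, in both cases C1ql3. The cause of these shifts was not tested.

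The replicate numbers in the titles name different animals, and same-numbered libraries had mean correlations of 0.025, -0.070 and -0.092 in the 3 comparisons of arms. The block left out the trained female without a number and its partner, so it used 14 of 16 libraries for training and for the third comparison. With the replicate block the counts of complement genes called were again 0, 0 and 1, with Itgam at -0.30 (limma adjusted p = 0.0279) in the third comparison and -0.23 (adjusted p = 0.228) for training. The same 14 libraries without the block gave -0.30 (adjusted p = 0.00794) and -0.23 (adjusted p = 0.113). Over the whole table the block took the genes called for the genotype label from 179 to 114. For training 713 genes were called with 16 libraries, 248 with the 14 and 29 with the 14 and the block, and in the third comparison these counts were 3074, 2501 and 1614.

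Signs reversed in these cases. For the genotype label C1qa was 0.017 in animals with numbers under 1000, C3 was -0.0076 with a pseudocount of 0.1 and -0.020 with array weights, and Itgb2 was 0.0046 with quantile normalization and 0.0037 with limma-voom. For training C1qa was 0.011 with array weights, 0.0052 with the replicate block and with its 14 libraries without it, 0.14 with the animal number term, 0.11 in males with numbers over 1000 and 0.13 with that term without male library 3 (the last 2 alternatives were chosen after seeing the data). Also for training, Itgb2 was -0.0040 after GC and length correction and C1ql3 was -0.14 with array weights. In the third comparison the animal number term gave 0.00037 for C1qa, 0.15 for C1ql3, -0.079 for Clu, -0.081 for Sez6l2 and -0.14 for Cbln4, and GC and length correction gave -0.011 for C1qb and -0.013 for Itgb2. For sex GC and length correction gave -0.057 for C1qa, -0.012 for C3, -0.027 for C4b, -0.036 for Itgb2 and -0.010 for Tmem119, and GC correction alone gave -0.032 for C3, -0.047 for C4b, -0.019 for Itgb2 and 0.0056 for P2ry12. Itgam was 0.040 in animals with numbers under 1000 and 0.0070 in these without male untrained library 3 labelled KO. The corrections for GC content or length alone, the 14 libraries without the block and this last set were also chosen after seeing the data. For training by sex C1qa was 0.053 with array weights and 0.069 after GC and length correction, and Itgam was 0.045 with array weights.

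With 1 library left out, ranges that crossed 0 were -0.048 to 0.016 (C1qa), -0.036 to 0.028 (C3) and -0.033 to 0.028 (Itgb2) for the genotype label, and -0.062 to 0.0024 (C1qa), -0.081 to 0.0031 (C1qc), -0.043 to 0.12 (C4b), -0.00071 to 0.070 (Itgb2) and -0.043 to 0.22 (C1ql3) for training. They were -0.018 to 0.11 (C4b) for sex, -0.0058 to 0.13 (C3) for genotype label by sex, and -0.13 to 0.010 (C1qa), -0.13 to 0.010 (Itgam) and -0.044 to 0.088 (Itgb2) for training by sex.

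Over all genes, counts called for the genotype label were 98 without the sex covariate, 297 with array weights, 340 without male library 3 labelled KO and 115 without female library 3 labelled WT, against 179. For training they ranged from 0 with the animal number term to 2020 with array weights, and were 332, 408 and 433 without trained female library 1, 2 or 4 and 330 and 472 without untrained female library 1 or 4 labelled KO, against 713. In the third comparison the animal number term left 22, for sex GC and length correction left 603 of 3595, and for training by sex array weights gave 1132 and leaving out male untrained library 3 labelled KO gave 194, against 1. Counting error limits C3, with 5 to 64 reads a library, and Itgb2, with 54 to 168.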
